A study of Mus musculus with 30 samples.

Results

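The comparison set unstimulated calcaneus at 12 days against unstimulated calcaneus at 5 days, 6 of the 30 samples of a mouse RNA sequencing series. The members were chosen by title: 3 samples of bone from unstimulated controls at day 12 and 3 at day 5. The calcaneus is the heel bone, into which the Achilles tendon inserts. Every sample carried the genotype label Acta1,Ai32, in which Acta1 names the skeletal muscle actin gene and Ai32 a light-gated channelrhodopsin allele. The series asked how muscle contraction driven by light changes gene expression in tendon and bone, and both groups here were its controls, which were not stimulated. The remaining bone groups, of 3 samples each, comprised naive controls, labelled day 0, and the stimulated bones of the same 2 time points. The labels give no age or sex, do not name the promoter that drives the channel, and do not say that samples of a group came from separate animals. Spread here is therefore between samples of a group, and may be technical in part or in whole.

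Deposited totals ran from 19.3 to 35.0 M (1e6) gene counts per bone sample. Samples 1 and 2 of the 5-day group differed much less from each other than the rest of the bone pairs did. Between them 8.89% of 12913 genes had p under 0.05 in a chi-square test against binomial sampling. In the 14 other pairs within bone groups 29.2% to 46.4% did. Sampling noise alone also brings some genes under that threshold. They were summed into 1 library and counted once, so the comparison rested on 2 libraries at 5 days and 3 at 12 days. Below, the summed pair is called the paired 5-day library and sample 3 the single 5-day library. Levels are CPM, a gene's count over the scaled library total given in M. They can be set side by side for 1 gene across libraries, but not between genes of unequal length.

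The labelled tissue was borne out by its defining markers. Bglap, which encodes osteocalcin, stood at 1716 and 1294 CPM in the paired and single 5-day libraries, and at 2268, 1976 and 1642 CPM in the 12-day libraries. Osteocyte and osteoclast genes were also present in every library: Sost, an inhibitor of bone formation, at 15.7 to 27.6 CPM and Acp5, the acid phosphatase of osteoclasts, at 1033 to 1541 CPM. The bones also held other tissue. Summed shares of all counts in these 5 libraries were 0.393% to 2.12% for 16 erythroid genes, 0.213% to 0.495% for 18 neutrophil genes and 1.38% to 3.35% for 34 muscle fibre genes. In bulk RNA, fewer cells of a type and less RNA per cell cannot be told apart. The paired 5-day library also stood apart in keratinocyte genes, at 0.0255% of counts against 0.00234% in the single 5-day library and 0.00262% to 0.00294% at 12 days.

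A heel bone of a mouse encloses red marrow. There, erythroid precursors divide rapidly before they fill with haemoglobin and lose their nuclei. In the marrow, too, B lymphocytes are made through a stage that rearranges antibody genes, and granulocytes begin to pack granules at the promyelocyte stage. Around the marrow lie osteoblasts, which lay down and mineralise matrix, osteoclasts, which resorb it, and fat cells, which share a mesenchymal origin with osteoblasts. RNA from all of these is mixed in a library of a whole bone.

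No single gene passed the threshold: edgeR's quasi-likelihood test called 0 of 18851 genes in either direction (percent called 0), and the smallest adjusted p was 0.209. At an unadjusted p under 0.05 there were 2375 genes (12.6%), of which 1132 (6%) were higher at 12 days and 1243 (6.59%) lower. Libraries of the 2 groups did not overlap for 34.2% of all genes tested, with 17.7% above at 12 days and 16.5% below. DESeq2, run on the same libraries, called 244 of 17090 genes (1.43%), 68 higher (0.398%) and 176 lower (1.03%). limma-voom with quality weights called 19. The median log2 fold change over all genes was 0.0199. Because no gene passed edgeR's threshold, the values below are differences that did not pass, and higher and lower describe levels only.

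**Figure D1:**
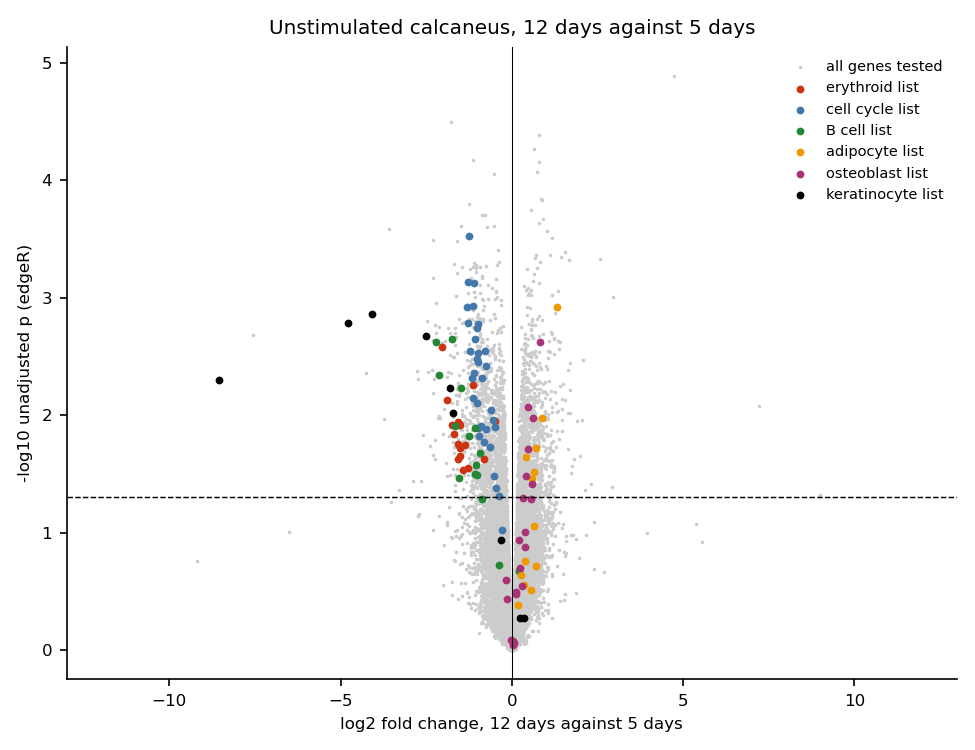
Each point is a gene tested in unstimulated calcaneus, with the log2 fold change of 12 days against 5 days on the horizontal axis and -log10 of edgeR's unadjusted p on the vertical axis; the dashed line marks 0.05. Erythroid, cell cycle and B cell genes lie on the left, and adipocyte and most osteoblast genes on the right.

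The red cell programme was lower at 12 days in every gene measured. All 16 tested erythroid genes of a list of 17 had a log2 fold change below 0, from -2.05 to -0.50 with a median of -1.51, and all 16 reached an unadjusted p under 0.05, where 6.59% of all genes were lower by that measure. In each of them the 3 libraries at 12 days lay below both at 5 days, which held for 16.5% of all genes. Adjusted p-values ran from 0.245 to 0.339, so none was called by edgeR, and DESeq2 called 2. Without the first 12-day library 8 of the 16 reached an unadjusted p under 0.05 and the median was -1.26. Without the paired 5-day library 4 did, with a median of -1.35; the lone 5-day library is then assumed to vary like the other groups.

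Globin genes gave most of these counts. Hbb-bs, the adult beta globin gene (GRCm38 7:103826534-103828096, minus strand), stood at 8400 and 6913 CPM in the paired and single 5-day libraries and at 1595, 2896 and 3212 CPM in the 12-day libraries. Both 5-day libraries were thus far above all 12-day ones, and the log2 fold change was -1.58 ± 0.57 (SE; adjusted p = 0.295 by edgeR). Hba-a1, an alpha globin gene, stood at 4573 and 3637 CPM against 898.5, 1545 and 1868 CPM. The 2 alpha copies and the 2 beta copies are near identical in sequence, so how the authors' counting shared reads within each pair is uncertain. Their log2 fold changes were alike, between -1.58 and -1.51.

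Genes of the red cell membrane and of haem synthesis, which have no such copies, were lower as well. Slc4a1, the anion exchanger band 3 of the red cell membrane, stood at 422.7 and 323.8 CPM at 5 days against 43.9, 79.1 and 147.3 CPM at 12 days (log2 fold change -2.05 ± 0.53, adjusted p = 0.245 by edgeR). The 12-day libraries did not agree closely among themselves, the first being the lowest. Alas2, the erythroid enzyme that opens haem synthesis, stood at 284.7 and 207.4 CPM against 41.2, 81.3 and 95.6 CPM. Sptb, the spectrin chain of the membrane skeleton, stood at 191.9 and 185.2 CPM against 64.9, 72.8 and 120.9 CPM. Tfrc, the transferrin receptor that dividing cells of other types also use to take up iron, had the smallest difference of the list, at 126.7 and 132.5 CPM against 101.4, 82.7 and 90.4 CPM.

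Regulators and receptors of the lineage went the same way. Klf1, a transcription factor of erythroid cells, stood at 16.3 and 12.3 CPM at 5 days against 3.62, 4.77 and 8.11 CPM at 12 days. Epor, the erythropoietin receptor, stood at 17.7 and 15.02 CPM against 5.69, 11.0 and 11.4 CPM. As a share of all counts the list took 2.12% and 1.68% at 5 days and 0.393%, 0.734% and 0.854% at 12 days. Naive bone took 1.84%, 1.95% and 5.13%, so the 12-day unstimulated libraries were below all naive libraries as well.

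The promoters of 3 of these genes are printed because their letters bear the motifs looked for in the list: the 250 bases before the start of Hbb-bs (chr7:103827929-103828178 on the minus strand), Alas2 (chrX:150547167-150547416 on the plus strand) and Epb42 (chr2:121036878-121037127 on the minus strand), from RefSeq on GRCm38.p6. RefSeq and GENCODE place these starts differently, so that 168, 42 and 195 bases of these windows, in that order, lie inside the GENCODE gene. Capitals mark CACCC or its reverse complement GGGTG, the core of the site that KLF1 is known to bind, and AGATAA or its reverse complement TTATCT, a form of the site that GATA1 is known to bind. Epb42 encodes protein 4.2 of the red cell membrane.
Hbb-bs: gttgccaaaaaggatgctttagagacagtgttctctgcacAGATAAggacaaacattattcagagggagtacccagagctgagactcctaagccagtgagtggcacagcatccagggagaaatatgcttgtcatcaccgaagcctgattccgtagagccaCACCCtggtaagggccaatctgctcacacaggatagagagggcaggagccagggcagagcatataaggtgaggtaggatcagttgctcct
Alas2: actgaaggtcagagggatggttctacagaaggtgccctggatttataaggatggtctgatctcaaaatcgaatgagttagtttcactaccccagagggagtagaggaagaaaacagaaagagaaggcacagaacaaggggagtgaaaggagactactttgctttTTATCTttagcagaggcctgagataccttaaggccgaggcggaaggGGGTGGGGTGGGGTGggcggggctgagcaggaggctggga
Epb42: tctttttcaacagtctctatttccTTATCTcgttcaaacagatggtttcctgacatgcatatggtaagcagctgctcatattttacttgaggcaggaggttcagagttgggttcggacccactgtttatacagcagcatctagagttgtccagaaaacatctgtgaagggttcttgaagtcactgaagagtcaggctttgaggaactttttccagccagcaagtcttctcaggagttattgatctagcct
CACCC on either strand was in 12 of the 13 erythroid promoters found in the table (92.3%), against 51.3% of 27025 promoters of all genes. AGATAA was in 5 of 13 (38.5%), against 10.3% of all. Hbb-bs and Alas2 carried both and Epb42 only the second in this window. In the cell cycle list described below, CACCC was in 16 of 28 promoters (57.1%) and AGATAA in 2 of 28 (7.14%). The erythroid list holds near-identical globin copies, so its promoters need not be separate cases. A match of letters is a description and not a bound site, and the motifs were chosen with the direction of the list known.

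Genes of DNA replication and mitosis were lower at 12 days as a block. All 33 genes of the cell cycle list had a log2 fold change below 0, from -1.32 to -0.28 with a median of -0.99, and in all 33 the 12-day libraries lay below both 5-day libraries, as 16.5% of all genes did. An unadjusted p under 0.05 was reached by 32 of them, and by 19 without the paired 5-day library, with a median of -0.86. edgeR called none after adjustment (0.223 to 0.467), while DESeq2 called 19. The list took 0.128% and 0.112% of counts at 5 days and 0.0495%, 0.0731% and 0.0766% at 12 days, with 0.146% to 0.218% in naive bone.

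Among the mitotic genes, Bub1b, a kinase of the spindle checkpoint (2:118598211-118641591, plus strand), stood at 25.2 and 19.9 CPM in the 5-day libraries and 6.82, 12.3 and 8.92 CPM at 12 days. This was a log2 fold change of -1.26 ± 0.25 (adjusted p = 0.223 by edgeR). Ccnb1, the cyclin that drives entry into mitosis, had the largest difference of the list, at 27.6 and 27.5 CPM against 7.53, 12.8 and 12.6 CPM (-1.32 ± 0.31). The 5-day libraries all but coincided for this gene. Cdk1, the kinase partner of that cyclin, stood at 29.5 and 29.2 CPM against 10.9, 14.4 and 15.6 CPM. Mki67, the proliferation antigen Ki-67, stood at 159.6 and 135.1 CPM against 45.4, 68.6 and 85.0 CPM.

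Genes of the replication machinery were lower too. The MCM helicase genes ranged from -1.03 ± 0.26 for Mcm5 to -0.48 ± 0.17 for Mcm4. Mcm5 stood at 56.2 and 49.2 CPM at 5 days and 18.2, 30.8 and 28.5 CPM at 12 days. Pcna, the sliding clamp of DNA polymerase, which many cell types express, stood at 101.1 and 103.1 CPM against 76.5, 76.1 and 81.6 CPM. E2f1 was the 1 member that did not reach an unadjusted p under 0.05. Several of the genes with the smallest p outside the list also serve mitosis or the nuclear envelope. Prc1, which bundles the central spindle, stood at 24.7 and 22.3 CPM against 8.84, 11.5 and 11.8 CPM. Kif18b, a kinesin of the mitotic spindle, stood at 15.99 and 12.2 CPM against 3.76, 4.89 and 6.59 CPM. Lmnb1, which encodes lamin B1, stood at 56.4 and 50.7 CPM against 17.6, 27.1 and 23.3 CPM.

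The promoters of 3 cell cycle genes were picked by hand, those of Bub1b (chr2:118597961-118598210 on the plus strand), Cdk1 (chr10:69352913-69353162 on the minus strand) and Cenpf (chr1:189688087-189688336 on the minus strand). They are printed to show the CCAAT box, the letters that the factor NF-Y is known to bind and that mitotic promoters are known to carry. Of the Cdk1 window, 26 bases lie inside the GENCODE gene. Capitals mark CCAAT or its reverse complement ATTGG.
Bub1b: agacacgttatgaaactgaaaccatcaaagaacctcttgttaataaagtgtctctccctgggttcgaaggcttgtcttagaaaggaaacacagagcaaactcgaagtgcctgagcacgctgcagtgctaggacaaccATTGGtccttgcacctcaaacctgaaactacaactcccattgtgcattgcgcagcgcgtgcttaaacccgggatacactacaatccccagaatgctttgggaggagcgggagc
Cdk1: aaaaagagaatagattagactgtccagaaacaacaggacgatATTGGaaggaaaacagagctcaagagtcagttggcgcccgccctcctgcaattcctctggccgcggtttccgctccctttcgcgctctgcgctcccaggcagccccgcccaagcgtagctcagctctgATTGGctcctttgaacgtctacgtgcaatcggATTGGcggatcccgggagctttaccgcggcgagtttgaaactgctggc
Cenpf: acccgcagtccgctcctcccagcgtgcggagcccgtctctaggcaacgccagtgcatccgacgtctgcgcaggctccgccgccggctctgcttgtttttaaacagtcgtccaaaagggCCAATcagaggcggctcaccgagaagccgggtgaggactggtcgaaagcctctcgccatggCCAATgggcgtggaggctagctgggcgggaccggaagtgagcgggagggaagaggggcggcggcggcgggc
Bub1b had 1 such match, Cdk1 3 and Cenpf 2. Over the list, 22 of 28 promoters found (78.6%) held CCAAT on either strand, against 34.5% of the 27025 promoters of all genes. The same window held CCAAT in 8 of 13 erythroid promoters (61.5%). This motif, too, was chosen with the direction of the list known.

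**Figure D2:**
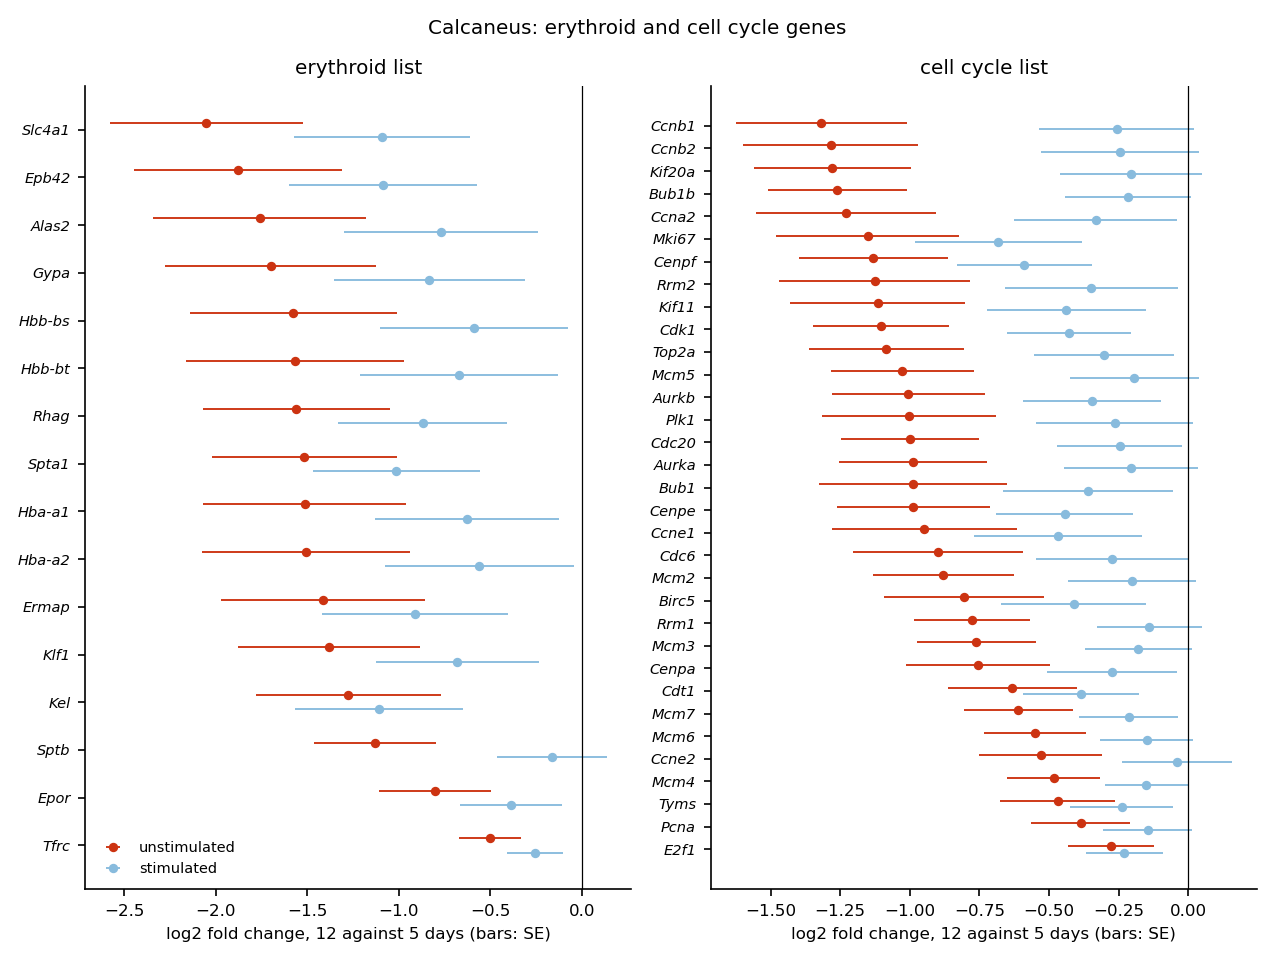
Log2 fold changes of 12 against 5 days for the 16 erythroid and 33 cell cycle genes tested, with bars of 1 SE, in unstimulated (red) and stimulated (blue) calcaneus. Every point lies below 0 in both, and the medians are nearer to 0 in stimulated bone (-0.72 and -0.26).

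The cell cycle and erythroid lists both took a lower share of counts in each 12-day library than in either 5-day library. The erythroid score, the mean log2 CPM of the erythroid genes, had values of 7.31 and 6.99 in the 5-day libraries against 4.96, 5.65 and 6.23 at 12 days. With that score as a covariate the median of the cell cycle list was -0.13 instead of -0.99, with 25 of 33 genes below 0 and 3 at an unadjusted p under 0.05. With a marrow score that averages erythroid, neutrophil and B cell genes it was -0.07. Both scores were themselves lower in every 12-day library than in either 5-day one. Such a fit therefore takes out part of the difference by day itself, and these medians decide nothing. Nor can it tell fewer dividing erythroid cells from less division among all marrow cells. Which cells the lower cell cycle counts came from was not tested.

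B cell genes were lower at 12 days in all members but 1. Of 15 B cell genes, 14 had a log2 fold change below 0, and 12 reached an unadjusted p under 0.05 as lower, where 6.59% of all genes did. The list median was -1.09, and edgeR's adjusted p-values ran from 0.245 up. Dntt, the polymerase that adds bases at antibody gene joints, stood at 14.4 and 10.1 CPM at 5 days and 1.13, 4.94 and 1.57 CPM at 12 days (-2.21 ± 0.57). Igll1, part of the surrogate light chain of the pre-B cell receptor, stood at 19.4 and 17.8 CPM against 1.74, 8.36 and 2.15 CPM. Vpreb1, the other part of that chain, stood at 13.1 and 12.0 CPM against 2.40, 5.93 and 2.69 CPM. The second 12-day library was the highest of its group for all 3.

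For Cd79a, which mature B cells keep, that library came close to the single 5-day library. This signalling chain of the B cell receptor stood at 77.2 and 55.8 CPM against 22.4, 52.5 and 24.3 CPM (-1.003 ± 0.41, adjusted p = 0.345 by edgeR). Ebf1, a transcription factor that stromal and fat cells also express, was the 1 member above 0, at 0.20. Without the second 12-day library the list median was -1.62, and without the first -0.82. Without the first, 6 genes reached an unadjusted p under 0.05, without the third 7, and without the paired 5-day library 4. T and NK cell genes, 10 in all, had a median of -0.40. At an unadjusted p under 0.05, where 6.59% of all genes were lower, 2 were lower, Cd4 and Nkg7.

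In the neutrophil list all 18 genes were below 0, the median was -0.79, and 7 were lower at an unadjusted p under 0.05, where 6.59% of all genes were. The 5 with the smallest p among these are genes of granulocyte precursors, Mpo, Elane, Ctsg, Prtn3 and Ms4a3, and the other two were Cxcr2, a chemokine receptor of mature neutrophils, and Fcnb, a lectin of granulocytes. Mpo, myeloperoxidase, stood at 343.3 and 321.1 CPM at 5 days and 97.2, 178.2 and 111.3 CPM at 12 days (-1.36 ± 0.36, adjusted p = 0.245 by edgeR). Elane, neutrophil elastase, stood at 100.8 and 104.7 CPM against 37.1, 57.4 and 36.9 CPM. Ctsg and Prtn3, which encode the granule proteases cathepsin G and proteinase 3, were at -1.29 ± 0.39 and -1.16 ± 0.39. S100a8, a calcium-binding protein abundant in mature neutrophils, overlapped between groups, at 661.6 and 702.9 CPM against 369.0, 675.9 and 341.6 CPM (-0.56 ± 0.51). Without the single 5-day library 3 genes reached an unadjusted p under 0.05. With the marrow score as a covariate the list median was 0.58 and 13 of 18 genes were above 0, and with the erythroid score it was -0.14. The B cell median was 0.06 with the marrow score and -0.40 with the erythroid score. The marrow score includes the neutrophil and B cell genes themselves. Its fit therefore takes out part of their own difference, and its medians for these lists decide nothing. The erythroid score also separated the groups by day, so its medians decide nothing here either.

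**Figure D3:**
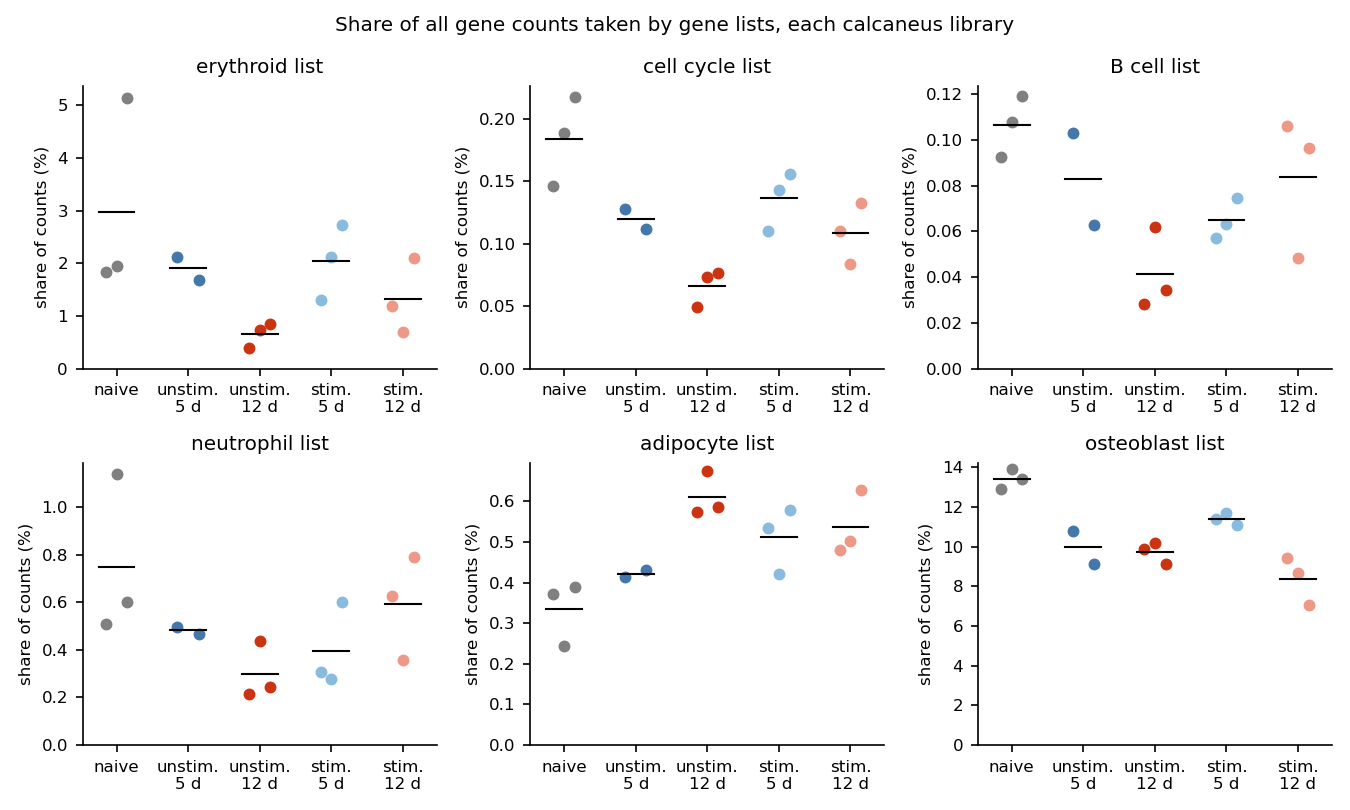
Share of all gene counts (%) taken by the genes of 6 lists in each of the 14 calcaneus libraries, by group; black bars are group means, and the 5-day unstimulated group holds the summed pair and sample 3. The 12-day unstimulated libraries are the lowest group for erythroid and cell cycle genes (means 0.66% and 0.0664%) and the highest for adipocyte genes (0.611%).

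Fat cell genes were higher at 12 days. All 13 adipocyte genes had a log2 fold change above 0, with a median of 0.60; 6 reached an unadjusted p under 0.05 as higher, where 6% of all genes did, and in 12 the groups did not overlap, where 17.7% of all genes lay above. None was called by edgeR. Retn, the fat cell hormone resistin, stood at 19.8 and 21.8 CPM at 5 days and 49.9, 56.5 and 49.7 CPM at 12 days. Its log2 fold change was 1.33 ± 0.31 (adjusted p = 0.242 by edgeR), and it was the 1 member that DESeq2 called. Cfd, the complement protease adipsin, stood at 793.5 and 764.0 CPM against 1479, 1586 and 1243 CPM. Adipoq, the hormone adiponectin, stood at 124.6 and 124.3 CPM against 207.7, 219.2 and 179.9 CPM (0.70 ± 0.26, adjusted p = 0.3003 by edgeR). Plin1, the coat protein of fat droplets, stood at 139.0 and 107.5 CPM against 140.6, 234.8 and 186.5 CPM, so the first 12-day library all but met the paired 5-day one. With the marrow score as a covariate the median was 0.92 and all 13 genes stayed above 0. That score itself separated the groups by day, so this fit decides nothing. Without the single 5-day library 1 gene reached an unadjusted p under 0.05, and without the second 12-day library 3, with medians of 0.71 and 0.41. Naive bone took 0.243% to 0.388% of counts for this list, below the 0.573% to 0.674% of the 12-day libraries.

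Osteoblast genes leaned upward, unevenly. Of 21 genes, 18 were above 0, with a median of 0.29, and 6 reached an unadjusted p under 0.05 as higher, where 6% of all genes did. Without the single 5-day library 2 did, with a median of 0.17, and without the first 12-day library the median was also 0.17. Ibsp, bone sialoprotein, which seeds mineral, stood at 657.5 and 609.6 CPM at 5 days and 1242, 1052 and 1100 CPM at 12 days (0.84 ± 0.22, adjusted p = 0.245 by edgeR). Naive bone had 1002 CPM on average for this gene, so the 5-day libraries were the lower side. Alpl, the phosphatase that frees phosphate for mineral, stood at 441.7 and 335.2 CPM against 521.8, 572.5 and 513.4 CPM. Pth1r, the receptor of parathyroid hormone, stood at 169.1 and 166.2 CPM against 238.3, 235.5 and 228.2 CPM, with each group close within itself. Slc20a1, a phosphate transporter of the mineral list, stood at 72.2 and 75.7 CPM against 99.7, 124.3 and 106.1 CPM (0.57 ± 0.15, adjusted p = 0.245 by edgeR).

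The lineage factors and the main matrix gene of osteoblasts differed little. Runx2, which specifies the lineage, stood at 87.3 and 74.6 CPM against 88.3, 87.4 and 86.3 CPM (0.11 ± 0.11). Sp7, its partner osterix, was at 0.20 ± 0.12. Col1a1, the main chain of type I collagen, overlapped between groups and was at -0.18 ± 0.15. The list's share of counts, which that collagen leads, came to 10.8% and 9.14% in the 5-day libraries against 9.86%, 10.2% and 9.11% at 12 days, so a rise of the list as a whole was not seen in its summed counts.

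Osteocyte genes leaned upward too, with no member past a threshold. Of 10 genes, 9 were above 0 with a median of 0.27, and 0 reached an unadjusted p under 0.05 in edgeR or were called by DESeq2. Sost stood at 21.4 and 15.7 CPM against 18.4, 20.8 and 27.6 CPM (0.26 ± 0.39). Dmp1, a mineral-regulating matrix protein of osteocytes, stood at 233.6 and 149.5 CPM against 144.1, 148.6 and 144.6 CPM (-0.39 ± 0.25). Here the paired 5-day library alone was high.

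Osteoclast genes also centred near 0, with a median of -0.07 over 17 genes. Acp5 was at 0.29 ± 0.25 and Ctsk, the collagen-cleaving protease cathepsin K, at 0.03 ± 0.26, and Tnfsf11, which encodes the osteoclast factor RANKL, at -0.14 ± 0.28. At an unadjusted p under 0.05, where 6.59% of all genes were lower, 2 members were lower, Car2 and Calcr. Car2, a carbonic anhydrase that red cells also hold in quantity, stood at 160.5 and 124.6 CPM against 37.5, 53.0 and 89.2 CPM, and its part in red cells and osteoclasts was not tested. Calcr, the calcitonin receptor of osteoclasts, stood at 1.76 and 2.13 CPM against 1.27, 1.13 and 1.12 CPM.

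Of 20 cartilage genes, 14 were below 0 and 3 were higher at an unadjusted p under 0.05, where 6% of all genes were. The list median was -0.20, opposite in sign to those 3. Without the single 5-day library the median was 0.13, and 1 gene reached that p without the paired 5-day, the first 12-day or the third 12-day library. Chad, chondroadherin, a cartilage matrix protein that binds collagen, stood at 524.4 and 936.8 CPM at 5 days and 1927, 1914 and 1399 CPM at 12 days (1.26 ± 0.30, adjusted p = 0.245 by edgeR), and DESeq2 called it. Comp, a matrix protein of cartilage and tendon, stood at 675.1 and 939.9 CPM against 1227, 1287 and 1167 CPM. Sox9, the transcription factor of the lineage, stood at 13.9 and 19.8 CPM against 25.5, 22.7 and 25.5 CPM. For all 3 the single 5-day library lay above the paired one. Acan, the main proteoglycan of cartilage, overlapped between the groups at -0.06 ± 0.32. Of 12 tendon fibroblast genes, 8 were below 0 with a median of -0.19. At an unadjusted p under 0.05, where 6% of all genes were higher, 1 was higher. Tnmd (tenomodulin) stood at 76.6 and 178.5 CPM against 156.5, 68.1 and 73.1 CPM, without order by day. Dcn, the collagen-binding proteoglycan decorin, had the highest fold change of that list, at 2235 and 2629 CPM against 4737, 3560 and 3005 CPM (0.63 ± 0.20).

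Among signalling genes, the Wnt list centred near 0. Wnt signals pass through Frizzled receptors and stabilise beta-catenin, and in bone they favour osteoblasts. Of 31 genes, 22 were above 0 with a median of 0.10, and 5 were higher and 0 lower at an unadjusted p under 0.05, where 6% of all genes were higher. Wnt10b, a ligand known to favour bone over fat (15:98770712-98778150, minus strand), stood at 17.3 and 14.02 CPM at 5 days and 29.7, 24.1 and 25.05 CPM at 12 days (0.75 ± 0.13, adjusted p = 0.209 by edgeR). Lgr6, a receptor for R-spondin ligands that strengthen Wnt signals (1:134983301-135105276, minus strand), stood at 16.7 and 14.6 CPM against 27.4, 28.4 and 29.1 CPM (0.85 ± 0.16, adjusted p = 0.223 by edgeR). DESeq2 called these 2 members. The 3 others were the ligand Wnt5a, the Wnt-inactivating enzyme Notum and the secreted antagonist Frzb, of which Frzb stood at 24.7 and 27.3 CPM against 42.2, 45.2 and 42.8 CPM.

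In the BMP and TGF-beta list, 26 of 35 genes were above 0 with a median of 0.07, and 6 were higher at an unadjusted p under 0.05, where 6% of all genes were. The ligand Tgfb3 stood at 79.7 and 82.6 CPM against 111.9, 104.1 and 101.2 CPM (0.38 ± 0.12). The BMP target genes Id1 and Id3 were at 0.42 ± 0.17 and 0.42 ± 0.16. Chrd, the BMP antagonist chordin, was at 0.31 ± 0.14. Of 10 hedgehog and PTHrP genes, 9 were above 0 and 3 were higher at an unadjusted p under 0.05, against the same 6%: Pth1r, the hedgehog target and transcription factor Gli1 (0.38 ± 0.15) and the hedgehog-binding inhibitor Hhip (0.63 ± 0.22). The IGF and growth list was evenly split, with 11 of 22 genes above 0, 11 below and a median of 0.01. In it 3 genes were higher and 0 lower at an unadjusted p under 0.05, against the same 6% higher. Stc2, a secreted inhibitor of IGF release, stood at 15.4 and 15.4 CPM against 24.0, 32.2 and 29.7 CPM (0.90 ± 0.17, adjusted p = 0.223 by edgeR). Ghr, the growth hormone receptor, was at 0.39 ± 0.14. Emcn, endomucin of the endothelium, was at 0.41 ± 0.12, and 12 of 14 endothelial genes were above 0 with a median of 0.10.

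Beyond the lists, the genes with the smallest p and a mean of at least 1 CPM were taken, 15 in each direction, none of which passed in edgeR (adjusted p 0.209 to 0.223) and all 30 of which DESeq2 called. Tst, a mitochondrial sulfurtransferase (15:78399556-78405907, minus strand), stood at 15.7 and 13.9 CPM against 22.4, 26.0 and 28.4 CPM (0.79 ± 0.13). Cdo1, cysteine dioxygenase, stood at 61.3 and 47.8 CPM against 87.8, 95.7 and 103.5 CPM (0.81 ± 0.16). Gpx3, the secreted glutathione peroxidase, had the highest level of the 15, at 767.0 and 540.7 CPM against 1676, 1537 and 1184 CPM (1.16 ± 0.24). Rbp4, the retinol carrier, which fat cells also secrete, was at 1.03 ± 0.20, and Inmt, an amine methyltransferase, at 1.56 ± 0.32, the largest difference of the 15.

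Others in that direction were Dixdc1, a Wnt pathway scaffold (0.66 ± 0.11), Penk, the enkephalin precursor (0.91 ± 0.18), Bckdhb, a subunit of the branched-chain keto acid dehydrogenase (0.55 ± 0.10), Trps1, a transcription factor of cartilage and bone (0.72 ± 0.15), Cyp3a13 (1.44 ± 0.30) and Fbxl2 (0.68 ± 0.14). Cdiptos, whose name marks it as opposite to Cdipt, was at 1.11 ± 0.23, and with the strand setting unknown its reads and those of its partner cannot be told apart. Lower genes outside mitosis included Trim58, a ubiquitin ligase of maturing red cells, at 4.70 and 3.99 CPM against 0.42, 1.07 and 1.08 CPM (-2.31 ± 0.47). Tmcc2, a transmembrane gene, stood at 162.6 and 124.3 CPM against 39.4, 40.3 and 62.2 CPM (-1.60 ± 0.32). Tmprss3, a membrane serine protease (17:31179265-31198977, minus strand), stood at 2.92 and 2.48 CPM against 0.56, 0.90 and 0.85 CPM (-1.79 ± 0.28). Rangap1, which serves nuclear transport, Frat2, a Wnt pathway protein, and Fam53b, Fbxo34, Cplx2, Slc7a1, Med13l and Tgm1 lay between -1.10 and -0.39.

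**Figure D4:**
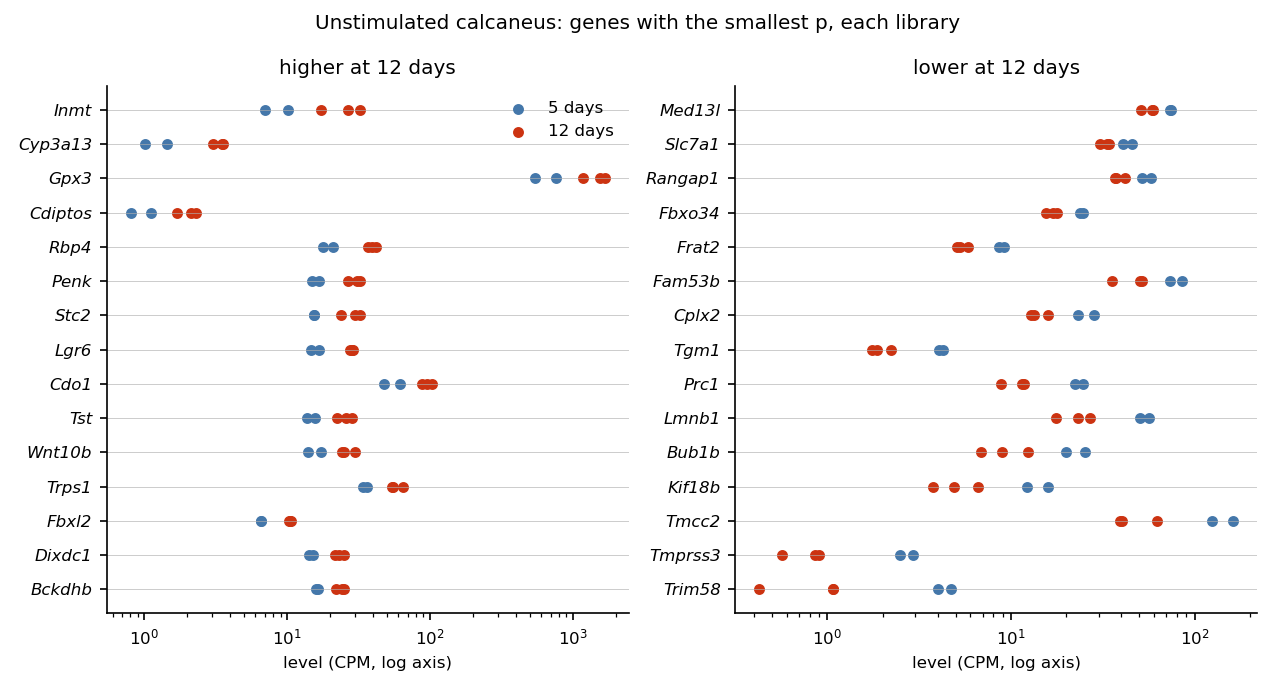
Level (CPM, log axis) of the 15 genes in each direction with the smallest p, 1 point per library, 2 at 5 days (blue) and 3 at 12 days (red). For every gene shown the groups do not overlap, which was part of the rule that chose them; Gpx3 is the most abundant of the higher genes and Tmcc2 of the lower ones.

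Several programmes gave medians near 0. The immediate early genes had a median of 0.02 over 26 genes, the YAP and SRF targets 0.04 over 18, channels and other mechanosensing genes 0.09 over 13, heat shock genes -0.02 over 14 and nuclear genes of oxidative phosphorylation -0.03 over 36. Clock genes were at 0.15 over 18, with 0 at an unadjusted p under 0.05 and 0 by DESeq2. Fibrillar collagens and their assembly enzymes were at 0.06 over 29 genes, and macrophage genes at -0.07 over 14. The muscle fibre list lay further from 0: of 34 genes 33 were below 0, with a median of -0.48. In 16 of them the 12-day libraries all lay below both 5-day libraries, as in 16.5% of all genes. Still, 0 reached an unadjusted p under 0.05 and 0 were called by DESeq2. Acta1, skeletal actin, stood at 4657 and 5040 CPM against 4165, 1881 and 4134 CPM (-0.51 ± 1.22), so that only the second 12-day library was clearly lower. Complement and acute phase genes had a median of 0.50, with 13 of 15 above 0. At an unadjusted p under 0.05, where 6% of all genes were higher, 3 were higher: Serping1, C1ra and Saa3. The value of Saa3 came from the first 12-day library, at 13.4 CPM against 0.22 to 1.36 CPM in the other 4.

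The keratinocyte list had the lowest median, -1.80 over 9 tested genes of 14, and that median rested on the paired 5-day library, without which it was 0.19. Krt10, a keratin of the upper skin layers, stood at 131.7 CPM there, at 3.76 CPM in the single 5-day library and at 4.85, 3.73 and 3.45 CPM at 12 days. Krt5, of the basal layer, stood at 12.8 CPM in the pair and at 0 to 0.0448 CPM in the other 4 libraries. Without the single 5-day library, 20 genes were called lower by edgeR, and keratin and cornified layer genes such as Krt10, Krt2, Lor and Flg led them; the lone 5-day library is then assumed to vary like the other groups. With a keratinocyte score as a covariate, 8 of 16 erythroid and 24 of 33 cell cycle genes reached an unadjusted p under 0.05, with medians of -1.41 and -0.88. That score was 3.70 in the paired 5-day library and -0.203 to 0.772 in all other bone libraries. The fit thus largely sets that 1 library aside. It cannot show what the lists would give without keratinocyte RNA.

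Set beside the same interval in stimulated bone, list medians differed in size and, for some, in sign. Stimulated bone also had 0 calls by edgeR (1987 genes at an unadjusted p under 0.05, 10.5%) and 118 by DESeq2. The test of the difference, unstimulated minus stimulated, called 0 of 18851 genes (2008 at an unadjusted p under 0.05, 10.7%; 56 by DESeq2). No gene's change was thus shown to differ between the arms by edgeR. The median of the erythroid list was -1.51 in unstimulated and -0.72 in stimulated bone, and that of the cell cycle list -0.99 and -0.26. In stimulated bone, too, 0 of the 16 erythroid and 0 of the 33 cell cycle genes were above 0. The difference between arms reached an unadjusted p under 0.05 in edgeR for 0 erythroid and 7 cell cycle genes, against 10.7% of all genes. Those 7 were more negative in unstimulated bone. Osteoblast genes had medians of 0.29 and -0.34, and for 17 of 21 the difference reached an unadjusted p under 0.05, where 5.91% of all genes were higher by that measure, with a smallest adjusted p of 0.354. Adipocyte genes had medians of 0.60 and -0.20, and neutrophil genes -0.79 and 0.56. Lgr6 had the smallest adjusted p of that difference among the named genes. It was at 0.85 ± 0.16 in unstimulated and -0.64 ± 0.14 in stimulated bone, a difference of 1.49 (adjusted p = 0.222 by edgeR). Its mean level was 28.3 CPM ± 0.834 (SD, n = 3) in unstimulated and 11.5 CPM ± 2.02 (SD, n = 3) in stimulated libraries at 12 days.

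**Figure D5:**
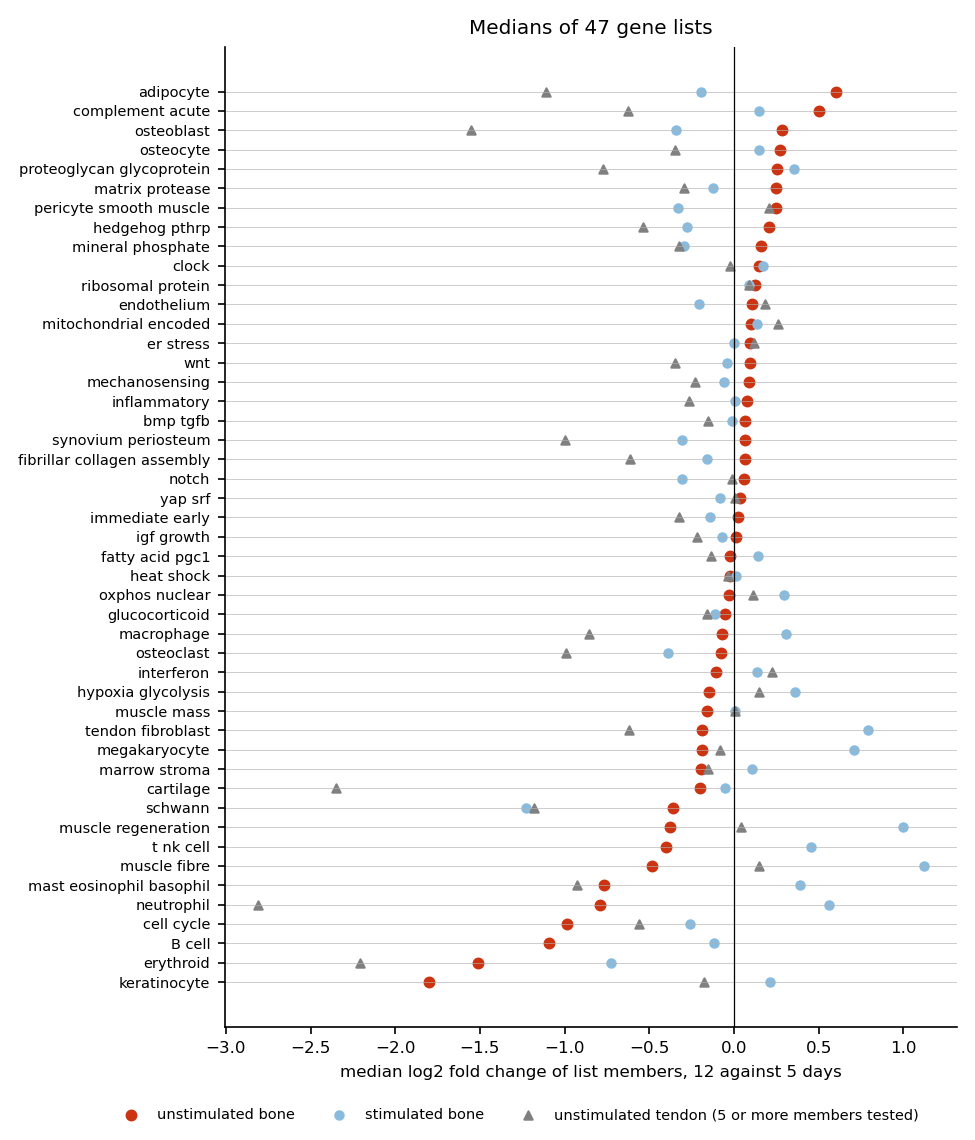
Median log2 fold change of 12 against 5 days over the tested members of each of 47 gene lists, in unstimulated calcaneus (red), stimulated calcaneus (blue) and unstimulated Achilles tendon (grey triangles, where at least 5 members were tested). Erythroid genes lie below 0 in all 3 (-1.51, -0.72 and -2.21), while adipocyte genes lie above 0 in unstimulated bone and below 0 in the other comparisons.

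In unstimulated Achilles tendon of the same study, edgeR called 4 of 17108 genes over the same interval (0.0234%), all lower and all globins. Among these 4, Hbb-bs stood at 65.9, 57.8 and 59.96 CPM at 5 days and 12.7, 13.1 and 13.4 CPM at 12 days, a log2 fold change of -2.23 ± 0.24 (adjusted p = 0.00311 by edgeR). Hba-a1 fell by 2.46 ± 0.18 on the log2 scale (adjusted p = 4.07e-05 by edgeR). In tendon the level of Hbb-bs was far below that in bone, and its spread within a group was smaller. The difference between tissues was 0.60 ± 0.62 for Hbb-bs (adjusted p = 0.733 by edgeR), an error that leaves either sign possible.

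Between bone and tendon 11 of 19845 genes had a change that differed by edgeR's test, 8 more positive in bone (0.0403%) and 3 more negative (0.0151%). The 8 were the bone and fat cell genes Acp5, Mmp9, Mmp13, Bglap, Bglap2, Smpd3, Slc13a5 and Adig, of which all but Adig lay between -0.01 and 0.38 in bone. Bglap and Bglap2 are near-identical copies, so the split of reads between them is uncertain. Mmp9, a matrix protease of osteoclasts, was at 0.09 ± 0.19 in bone, and in tendon stood at 23.6, 31.4 and 61.4 CPM at 5 days against 0.18, 0.30 and 0.38 CPM at 12 days (difference 7.10 ± 1.19, adjusted p = 0.0256 by edgeR). The 5-day tendon libraries thus held bone genes that the 12-day ones nearly lacked. Adig, adipogenin, was at 1.17 ± 0.27 in bone and -1.35 ± 0.34 in tendon (difference adjusted p = 0.0402 by edgeR). The 3 more negative in bone were Tmcc2, Frat2 and Zan. Tmcc2 was at -1.60 ± 0.32 in bone and 0.25 ± 0.11 in tendon, with 43.7, 47.9 and 35.5 CPM at 5 days and 52.1, 52.1 and 46.7 CPM at 12 days (difference -1.90 ± 0.33, adjusted p = 0.0256 by edgeR). The calls rested on few libraries: 3 were left without the third 5-day tendon library, 7 without the third 12-day bone library, 1 without the single 5-day bone library, and 0 without the paired 5-day bone library, any 1 of the 12-day tendon libraries or the first or second 12-day bone library. Without the first 5-day tendon library there were 30.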

How the data were processed

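RNA of mouse calcaneus and Achilles tendon was sequenced as poly-A libraries after column extraction, per the labels' protocols. Per the submitters' processing notes, the tools were cutadapt 2.3, FastQC 0.11.8, MultiQC 1.7, STAR 2.7.8a and RSEM 1.3.3 on GRCm38; the sources used here give no strand setting or annotation release. The values deposited by the authors are RSEM's expected counts, in which reads that fit several near-identical genes are shared out by an estimate. Values of the 55426 genes were rounded to whole numbers before fitting, and how many the rounding changed was not counted. Of the identifiers, 55240 (99.7%) matched GENCODE, which gave symbols and coordinates (1-based); promoters are RefSeq's on GRCm38.p6, from the first listed start.

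Counts of the 14 bone libraries were fitted together with R 4.3.3 and edgeR 4.0.16 (filterByExpr at a minimum count of 10 and total of 15, TMM scaling, robust quasi-likelihood test, Benjamini-Hochberg threshold 0.05); adjusted p-values are edgeR's unless DESeq2 is named. Tendon was fitted over its own libraries, and the difference between tissues over all. Standard errors (±) of log2 fold changes are the change over the square root of its F. Scores are mean log2 CPM with a prior count of 2. The code was tested on simulated data. Alternatives were DESeq2 1.42.0 (Wald test), its size factors in edgeR, limma-voom (limma 3.58.1) with quality weights, no filter, a replicate block, the pair kept apart, only the compared libraries, muscle and marrow scores as covariates, leaving out libraries, and, chosen after seeing the data, erythroid and keratinocyte scores and leaving out the summed 5-day pair.

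The members, the 47 gene lists and the tests were chosen with earlier results of these data known. The named genes, 15 per direction, have the smallest p among those with groups that do not overlap and 1 CPM or more on average; predicted and sex-linked genes were left out. Besides these, list members with the smallest p and 18 standard markers are named; some further list members were picked after their values were seen. Not every gene that these rules allow is reported here.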

Additional observations from a re-analysis of the deposited data

How the results depend on the processing

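All 30 named genes kept their direction in 19 alternatives, and each passed the threshold in 1 to 3 of them. They were chosen from these same libraries for groups that do not overlap, so a kept direction is no independent support. For 12 days against 5 days in unstimulated bone, where edgeR called 0 genes, DESeq2 called 244, limma-voom 19, and the pair kept as separate libraries 14, of which 11 were among those of limma-voom. Leaving out 1 library gave 0 to 20 calls, with 0 without the summed 5-day pair (1223 genes at an unadjusted p under 0.05) and 20 without 5-day replicate 3, none of these 20 shared with the limma-voom or separate-pair calls. Genes at an unadjusted p under 0.05 numbered 2375 with no covariate, 1076 with the marrow score, 930 with the erythroid score and 1353 with the keratinocyte score as a covariate. In stimulated bone DESeq2 called 118 where edgeR called 0, also 0 when libraries were left out. For the difference between the arms DESeq2 called 56, no filter 1, and leaving out 1 library 0 to 3. In unstimulated tendon DESeq2 called 128 and leaving out 1 library 2 to 4. Between bone and tendon DESeq2 called 193, and leaving out 1 library 0 to 30, with 0 without the summed pair. The cause of these differences was not tested.

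The labels share replicate numbers 1 to 3 between groups but do not say what a number marks. Deviations of same-numbered 5-day and 12-day samples correlated at -0.194, 0.138 and 0.0282. Deviations within a group of 3 constrain each other, and the 5-day group holds the closely alike pair. These correlations therefore cannot decide whether same-numbered samples share more than a number. With the replicate number as a block, edgeR called 0 genes in unstimulated bone (2227 at an unadjusted p under 0.05), 0 in stimulated bone and 0 for their difference, 11 in unstimulated tendon and 15 between tissues.

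Medians of the 9 lists recomputed kept their sign when any 1 library of unstimulated bone was left out, except for cartilage, at 0.13 without 5-day replicate 3, and keratinocyte genes, at 0.19 without the summed pair. With 12-day replicate 1 left out, 8 of 16 erythroid and 25 of 33 cell cycle genes reached an unadjusted p under 0.05. Genes under about 1 CPM rest on few reads.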

Other observations

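The smallest p of all genes in unstimulated bone belonged to Rdh9, a retinol dehydrogenase gene left out of the named genes for its low mean. It stood at 0.0289 CPM ± 0.0139 (SD, n = 2) at 5 days and 0.81 CPM ± 0.132 (SD, n = 3) at 12 days, and at 0.519, 0.489 and 0.858 CPM on average in naive, stimulated 5-day and stimulated 12-day bone. Rdh16f1, of the same gene family, stood at 0.863 CPM ± 0.454 (SD, n = 2) in unstimulated bone at 5 days and was listed at 0 in every other bone library. Whether the authors' counting moved reads from the first gene to the second was not tested.

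Interferon-stimulated genes did not move one way. Oas3, which senses double-stranded RNA, stood at 22.9 and 16.8 CPM at 5 days and 5.65, 10.2 and 8.29 CPM at 12 days, Rsad2, an antiviral enzyme, at 48.1 and 36.0 CPM against 12.2, 21.8 and 24.0 CPM, and Gbp2, an interferon-induced GTPase, at 15.9 and 11.5 CPM against 23.3, 24.1 and 17.5 CPM. Over 24 genes of that list the median was -0.11, with 8 above 0 and 16 below. At an unadjusted p under 0.05, 1 was higher and 3 were lower, where 6% and 6.59% of all genes were. Il1b, the cytokine interleukin 1 beta, stood at 14.9 and 13.1 CPM against 6.63, 6.27 and 4.39 CPM. The 18 inflammatory genes tested had a median of 0.08, with 11 above 0 and 7 below. By the same measure 1 of them was higher and 1 lower. Of 10 mast cell, eosinophil and basophil genes, 6 were below 0 and 4 above, with a median of -0.77, and 2 were lower at an unadjusted p under 0.05, where 6.59% of all genes were. These were Mcpt8 and Hdc, markers of basophils and mast cells, at -1.04 ± 0.33 and -1.08 ± 0.35 in log2 fold change. None of these passed edgeR's adjusted threshold, and DESeq2 called 1 gene of the interferon list, Oas3.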
